A study of Mus musculus with 8 samples.

Results

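The 10 genes described here, out of 27514 genes counted in every library, encode proteins that epithelia release at mucosal surfaces: the lectins Reg3g and Reg3b, the ribonuclease Ang4, the trefoil peptides Tff1 and Tff3, the calcium-binding pair S100a8 and S100a9, the airway proteins Bpifa1 and Wfdc2, and the immunoglobulin transporter Pigr. They were chosen by symbol from earlier results on these same libraries, for their levels in adult thymic epithelial cells (TEC), so their levels and their differences between adult cTEC and mTEC are given as descriptions with no test. Single-cell transcriptomes of thymic epithelium from wild-type mice of the strain labelled C57 B6 (CD45.2) were measured in 8 libraries. Each held sorted DAPI- EpCAM+ CD45- thymus cells. The E13.5 library was total TEC. Cortical TEC (cTEC), sorted as Ly51+ UEA-1- cells, came from E15.5, E17.5 and newborn (NB) mice with 1 library each and from adults with 2. Medullary TEC (mTEC) were sorted as Ly51- UEA-1+ cells from adults, in 2 libraries. The labels do not give how many mice were pooled, and their growth field names bone marrow where the tissue field names thymus. No group was treated, so the comparisons are between sorted cell types, between ages and between cells within a library.

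Thymic epithelium supports the production of T cells. Cortical cells commit and positively select thymocytes, and medullary cells show them a wide range of proteins that are otherwise made in single peripheral tissues. Part of this display depends on the regulator Aire, which acts in mature mTEC, and each mTEC makes only a fraction of the tissue-restricted proteins at a time. Some medullary cells also take on programmes of peripheral epithelia, among them tuft, microfold, keratinised and ciliated cells. In the gut, Reg3g and Reg3b are antibacterial C-type lectins of enterocytes and Paneth cells, Ang4 is a Paneth cell ribonuclease, and trefoil peptides are secreted with mucus, Tff1 in the stomach and Tff3 in intestinal goblet cells. S100a8 and S100a9 form calprotectin, which is abundant in neutrophils and is also made by inflamed keratinocytes. Bpifa1 is secreted in the upper airway, Wfdc2 is a small whey acidic protein family member of airway and genital tract epithelia, and Pigr carries dimeric IgA across epithelia.

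Some of the genes are neighbours. Reg3b (chr6:78370657-78373466, plus strand) and Reg3g (chr6:78466269-78468872, minus strand) lay 92802 bases apart on GRCm38 with 4 protein-coding genes between them, all Reg genes (Reg1, Reg2, Reg3a and Reg3d). Tff3 and Tff1, both on the minus strand of chromosome 17, were 31748 bases apart, and Tff2 was the protein-coding gene between them. S100a8 (chr3:90668978-90670035, plus strand) and S100a9 (chr3:90692632-90695721, minus strand) were 22596 bases apart with 0 protein-coding genes between. Bpifa1 (chr2:154142880-154149219) and Wfdc2 (chr2:164562413-164568510) are on the same chromosome but 10413193 bases and 148 protein-coding genes apart. Ang4 is on chromosome 14 and Pigr on chromosome 1. The promoter windows below are shown for 3 pairs in which most cells high for 1 gene were also high for the other. These were Reg3b-high cells with Reg3g and S100a9-high cells with S100a8 in adult mTEC, and Bpifa1-high cells with Wfdc2 in adult cTEC. The Reg and S100 pairs are linked, and the airway pair is not. Each window holds the 250 bases before and 50 bases after the RefSeq transcript start (GRCm38.p6) and is read 5′ to 3′ on the gene's own strand. Capitals mark matches on either strand to TATAAA, TTCNNNGAA (a STAT-type motif), TGANTCA (an AP-1-type motif) or an NF-kappaB-type motif (GGG, any 5 bases, CC). The windows are chr6:78370635-78370934 for Reg3b, chr6:78468825-78469124 for Reg3g, chr3:90668821-90669120 for S100a8, chr3:90695672-90695971 for S100a9, chr2:154142630-154142929 for Bpifa1 and chr2:164562465-164562764 for Wfdc2, for which the first of 2 listed starts is shown.
Reg3b: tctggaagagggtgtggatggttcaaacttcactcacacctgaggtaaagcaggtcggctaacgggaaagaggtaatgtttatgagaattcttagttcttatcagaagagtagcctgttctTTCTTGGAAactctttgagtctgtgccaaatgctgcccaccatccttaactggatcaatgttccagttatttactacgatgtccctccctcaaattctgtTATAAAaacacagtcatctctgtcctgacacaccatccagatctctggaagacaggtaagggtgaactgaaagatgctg
Reg3g: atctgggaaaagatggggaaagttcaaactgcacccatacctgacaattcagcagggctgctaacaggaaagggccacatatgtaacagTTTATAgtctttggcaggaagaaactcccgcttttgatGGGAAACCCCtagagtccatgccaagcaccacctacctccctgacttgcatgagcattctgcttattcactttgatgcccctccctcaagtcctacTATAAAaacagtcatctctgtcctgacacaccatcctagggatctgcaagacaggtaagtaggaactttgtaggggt
S100a8: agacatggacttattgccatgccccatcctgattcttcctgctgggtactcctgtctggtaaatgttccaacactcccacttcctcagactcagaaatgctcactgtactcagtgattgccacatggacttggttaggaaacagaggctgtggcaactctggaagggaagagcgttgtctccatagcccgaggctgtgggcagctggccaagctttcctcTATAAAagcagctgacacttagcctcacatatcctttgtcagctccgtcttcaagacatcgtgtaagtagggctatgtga
S100a9: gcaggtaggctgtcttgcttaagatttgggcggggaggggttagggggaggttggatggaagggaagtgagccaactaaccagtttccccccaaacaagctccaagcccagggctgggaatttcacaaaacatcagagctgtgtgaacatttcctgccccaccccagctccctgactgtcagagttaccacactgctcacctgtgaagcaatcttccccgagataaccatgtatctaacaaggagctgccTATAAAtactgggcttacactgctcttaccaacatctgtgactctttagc
Bpifa1: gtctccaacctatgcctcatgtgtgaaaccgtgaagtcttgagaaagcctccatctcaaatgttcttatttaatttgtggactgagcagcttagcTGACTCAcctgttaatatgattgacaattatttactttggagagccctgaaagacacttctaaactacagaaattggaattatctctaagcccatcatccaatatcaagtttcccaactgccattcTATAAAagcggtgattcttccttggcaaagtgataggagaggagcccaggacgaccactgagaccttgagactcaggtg
Wfdc2: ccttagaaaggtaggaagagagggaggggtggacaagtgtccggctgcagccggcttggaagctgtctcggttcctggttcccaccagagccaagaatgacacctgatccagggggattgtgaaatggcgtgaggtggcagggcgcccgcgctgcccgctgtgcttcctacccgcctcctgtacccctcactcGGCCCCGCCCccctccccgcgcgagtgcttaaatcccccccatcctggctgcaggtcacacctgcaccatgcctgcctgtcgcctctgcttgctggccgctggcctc

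The Reg3b and Reg3g windows matched at 211 of 306 columns (69.0%) of a global alignment, against 156 of 320 columns (48.8%) for S100a8 and S100a9 and 144 of 318 (45.3%) for Bpifa1 and Wfdc2. A TATAAA run stood 29 bases before the start of Reg3b and Bpifa1, 27 bases before that of Reg3g and 30 bases before that of S100a8, and 13.6% of 32851 mouse promoter windows of the same length held this run. TTCNNNGAA (8.30% of all windows) occurred 129 bases before the start of Reg3b and 192 bases before that of Ang4. TGANTCA (7.81% of all windows) occurred 155 bases before the start of Bpifa1 and 122 bases before that of Ang4. The NF-kappaB-type motif, which 50.8% of all windows held, was found in Reg3g, Wfdc2 and Pigr. Pigr also held TTCNNNGAA 40 bases after its start, and the TATAAA run of S100a9 lay at the start itself. These matches describe letters only and do not show that a factor binds there. 8 of the 10 genes had a window, Tff1 and Tff3 being the ones without. Of the 10 genes, 8 shared no exact run of 40 or more transcript bases with another gene. How reads were assigned between similar genes was not examined. Ang4 shared runs with 3 genes (longest 79 bases, with Ang5) and Pigr with 79 genes (longest 102 bases, with Gabra2), so reads of these genes may be divided differently by another counting.

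After the study's limits on cells (at most 5% mitochondrial unique molecular identifiers (UMIs), at most 5000 genes), the libraries held between 507 (adult cTEC replicate 1) and 8350 cells (E17.5), with a median of 3996 to 11386 UMIs per cell. Depth differed between the adult libraries: median UMIs were 3996 and 7062 in the cTEC and 9500.5 and 11386 in the mTEC. Levels are given as CPM, the UMIs of a gene per 1000000 UMIs of the library or set of cells. Pairs of libraries shared at most 61 cell barcodes, no more than 1.17% of the smaller library. The cTEC marker list summed to 10154 and 17394 CPM in adult cTEC and to 1013 and 1104 CPM in adult mTEC, whereas a list of Aire-high mTEC markers summed to 13249 and 13605 CPM in cTEC and to 23043 and 19120 CPM in mTEC. The sums of these 2 lists followed the sort labels, but those of the list of Ccl21a-high medullary markers overlapped, at 8630 and 2922 CPM in cTEC and 9987 and 5005 CPM in mTEC. In cTEC 276 of 507 cells (54.4%) and 206 of 535 (38.5%) met the rule for the Ccl21a-high set, 99 and 95 of them with exactly 3 markers, the fewest it takes. Ccl21a, a chemokine gene of medullary cells, had a UMI in 272 of 507 cells of cTEC replicate 1 and in 43 of 535 of replicate 2.

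Of the 10 genes, 7 had their highest level in adult mTEC and 3 in adult cTEC, and for every gene the 2 libraries of one adult cell type lay above the 2 of the other. Reg3g, Reg3b, Ang4, Tff1, Tff3, S100a8 and S100a9 were the genes higher in mTEC. Bpifa1, Wfdc2 and Pigr were those higher in cTEC, where Pigr was separated only narrowly (24.3 CPM in the lower cTEC library against 23.5 CPM in the higher mTEC library). All of these differences kept their direction in each data set taken alone. In embryonic and newborn libraries 8 of the genes were nearly absent, and only Wfdc2 and Bpifa1 reached 10 CPM.

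**Figure D1:**
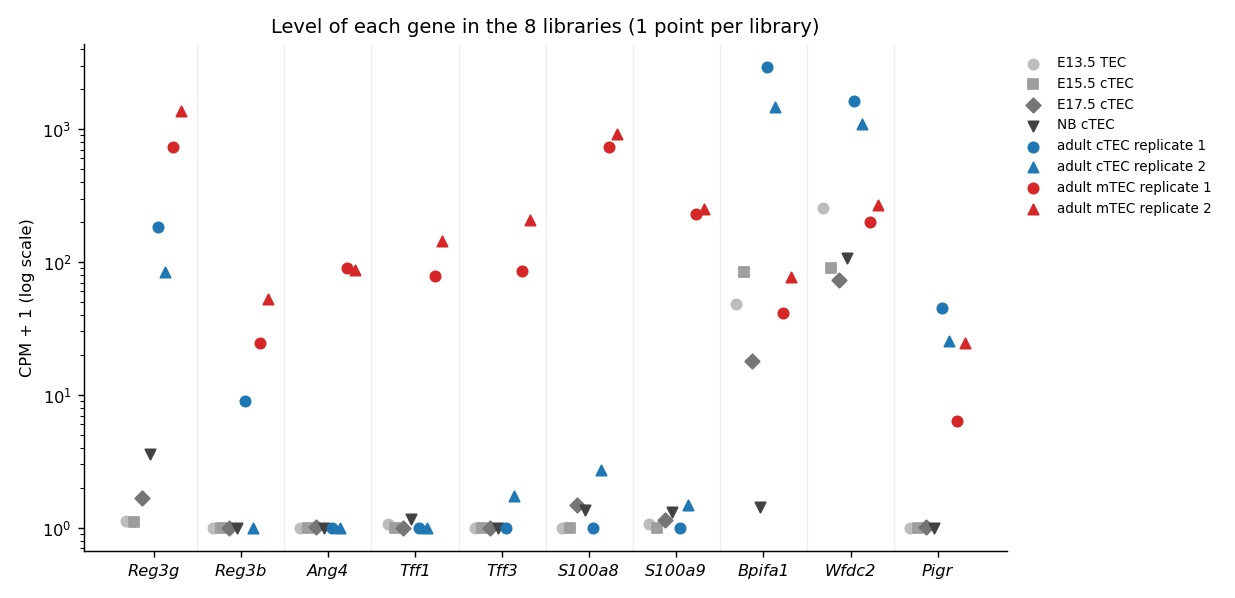
Level of each gene (CPM + 1, log axis) in the 8 libraries, with 1 point per library and no error bars because each point is 1 library. Reg3g reached 1375 CPM and S100a8 911 CPM in adult mTEC replicate 2, Bpifa1 reached 2923 CPM in adult cTEC replicate 1, and Wfdc2 was above 70 CPM in every library.

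Reg3g was detected in both adult sorts and was almost absent from younger cTEC. Its level was 734 and 1375 CPM in adult mTEC replicates 1 and 2, 181 and 83.2 CPM in adult cTEC, and 0.133, 0.11, 0.69 and 2.59 CPM at E13.5, E15.5, E17.5 and NB, respectively. The mTEC libraries were thus both above the cTEC libraries, by 4.05-fold in data set 1 and 16.5-fold in data set 2, and every adult library was far above the younger ones. The cTEC value was carried by very few cells: a single cell held 49.3% of all Reg3g UMIs in cTEC replicate 1 (200 UMIs) and 55.4% in replicate 2 (186 UMIs). The largest cell of mTEC replicate 1 held 1958 Reg3g UMIs, 11.5% of that cell's RNA, and that of replicate 2 held 3656, or 34.8%.

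Reg3b, its close relative, followed the same order at a lower level, with 23.5 and 52.0 CPM in mTEC and 8.04 and 0 CPM in cTEC. With 0 UMIs in cTEC replicate 2, the mTEC level of data set 2 was at least 70.0-fold higher, taking 3 UMIs per library as the limit. In data set 1 the ratio was 2.92, and 17 of the Reg3b UMIs of cTEC replicate 1 (94.4%) came from 1 cell. Ang4 was listed at 0 in both adult cTEC libraries (0 of 507 and 0 of 535 cells, which allows shares of cells with a UMI of up to 0.592% and 0.561% and sets no limit on cells with a lower level) and at 88.7 and 85.9 CPM in mTEC, at least 66.2-fold and 116-fold higher. The 2 mTEC values of Ang4 were the closest of any of these genes.

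The trefoil genes were also nearly limited to the medullary sort. Tff1 measured 77.1 and 143 CPM in mTEC and 0 CPM in both cTEC libraries, at least 57.5-fold and 192-fold higher in mTEC. Tff3 measured 84.4 and 205 CPM in mTEC, 0 CPM in cTEC replicate 1 and 0.743 CPM in cTEC replicate 2. On a ratio scale, the replicates of each gene in mTEC differed by far less than the gap between the sorts. The third trefoil gene, Tff2, which lies between them and was not chosen with them, measured 29.6 and 46.0 CPM in mTEC and 0.894 and 0 CPM in cTEC.

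S100a8 and S100a9 were almost absent from the cortical sort. S100a8 measured 730 and 911 CPM in mTEC and 0 and 1.73 CPM in cTEC, a level at least 544-fold higher in mTEC in data set 1. S100a9 measured 229 and 249 CPM in mTEC and 0 and 0.495 CPM in cTEC, at least 171-fold higher in data set 1. The replicates of each sort lay close together relative to that gap. Because S100a8 and S100a9 also mark neutrophils, the neutrophil marker list was summed in the same libraries: it reached 44.2 and 7.67 CPM in cTEC, with 6 and 5 of its 11 genes at 0, and 117 and 161 CPM in mTEC, with 0 of 11 at 0. The list thus moved in the same direction as S100a8 and S100a9. Leaving out the 15 and 117 mTEC that carried at least 3 thymocyte or 3 neutrophil markers gave S100a8 levels of 720 and 897 CPM and S100a9 levels of 225 and 242 CPM. Cells with at least 3 macrophage and dendritic markers, 92 and 905 mTEC and 1 and 1 adult cTEC, were not left out.

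The share of cells with any UMI of a gene differed between the mTEC replicates. In mTEC replicate 2, 92.8% of cells had a Reg3g UMI and 82.0% an S100a8 UMI, against 44.8% and 29.0% in the shallower replicate 1. Thinning each cell to 2000 UMIs lowered the shares to 53.6% and 38.6% in replicate 2 and to 20.9% and 16.3% in replicate 1. In cells with 3 or more tuft cell markers the shares were 77.4% for Reg3g and 59.4% for S100a8 in replicate 2 (106 cells, median 6961.5 UMIs, against 11386 in all cells). In replicate 1 they were 9.1% and 0% (11 cells, median 6094 UMIs). The tuft shares were thus below those of all mTEC in both replicates. Whether a low count of Reg3g or S100a8 shows that a cell made the gene, or is background, was not tested. To compare the replicates by one rule, cells with at least 20 UMIs of a gene, a limit chosen after these counts were seen, are called high for that gene.

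High cells of the mTEC genes were few and held most of their RNA. Reg3g was high in 86 of 1586 mTEC (5.42%) of replicate 1 and in 615 of 5615 (10.95%) of replicate 2, and these cells held 82.0% and 76.9% of its UMIs. S100a8 was high in 141 (8.89%) and 601 (10.7%) cells with 91.8% and 80.1% of its UMIs, and S100a9 in 66 and 239 cells with 78.1% and 69.3%. Both S100 genes were thus high in similar shares of the 2 replicates. Tff3 was high in 26 and 170 cells, Tff1 in 17 and 107, Ang4 in 27 and 80, and Reg3b in 4 and 36. The genes higher in cTEC were also high in some mTEC. Wfdc2 was high in 27 and 113 mTEC, as many as or more than Ang4, Tff1 or Reg3b, Bpifa1 in 5 and 50, and Pigr in 0 and 6. Of all mTEC, 260 (16.4%) and 1322 (23.5%) were high for at least 1 of the 10 genes, against 34 (6.71%) and 29 (5.42%) of adult cTEC. The younger libraries held 13 such cells (E13.5), 11 (E15.5), 2 (E17.5) and 1 (NB). The depth of the mTEC libraries was greater, which moves with these shares, and its part in them was not tested.

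**Figure D2:**
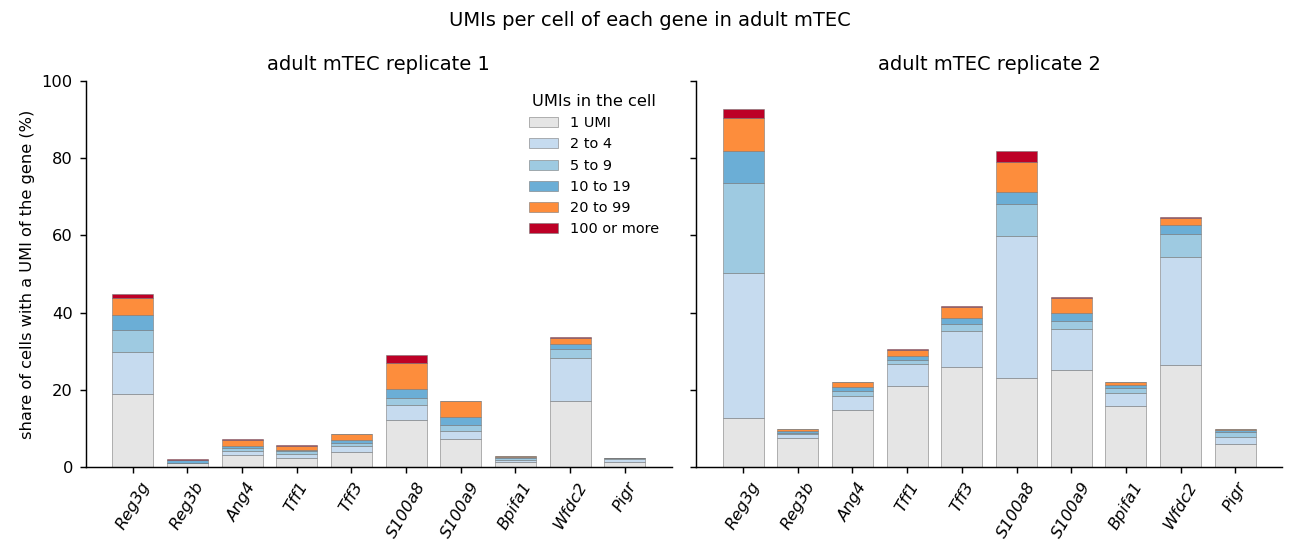
Share of adult mTEC with 1 or more UMIs of each gene (y axis, percent of cells), split by the number of UMIs in the cell, with 1 panel for each replicate. Most positive cells held few UMIs: Reg3g was found in 92.8% of cells of replicate 2 but reached 20 UMIs in 10.95%.

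The levels of the genes differed between marker sets of the medulla. Cells were placed in a set when at least 3 markers of a fixed list were detected and no other epithelial list had as large a share detected, which is a partition by transcripts and not a cell type call. Aire-high cells numbered 579 and 1252 and Ccl21a-high cells, the medullary type that makes the chemokine CCL21, 819 and 2962. S100a8 measured 1393 and 1524 CPM in Aire-high cells against 131 and 606 CPM in Ccl21a-high cells. S100a9 measured 398 and 466 CPM against 56.1 and 157 CPM, and Tff1 154 and 251 CPM against 6.79 and 96.0 CPM. Ang4 gave 150 and 123 CPM against 34.1 and 65.8 CPM. In each of these 4 genes both replicates were higher in the Aire-high set. Wfdc2 had no such order, with 253 and 234 CPM in Aire-high cells and 113 and 266 CPM in Ccl21a-high cells.

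Reg3g stood apart in its position. In the cells carrying microfold markers (16 and 147 cells), a type that samples antigen over gut lymphoid tissue, it reached 22186 and 7323 CPM, against 692 and 1282 CPM in Aire-high cells and 245 and 1262 CPM in Ccl21a-high cells. The keratinised set of 9 and 58 cells had 5779 and 1694 CPM. The tuft set was lower than all of these, at 11.5 and 424 CPM. In the microfold set Tff3 measured 959 and 339 CPM and S100a8 2558 and 1343 CPM, so Reg3g was not the only one of these genes present there. The sets are small and each level is a sum over cells of 1 library, so the order between the microfold and keratinised sets rests on the 2 libraries. Aire itself was detected in 84.9% and 83.3% of Reg3g-high cells against 51.5% and 74.8% of all mTEC.

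Aire detection was higher among S100a8-, S100a9-, Tff1-, Tff3- and Ang4-high cells as well. It was 96.5% and 96.0% in S100a8-high cells, 98.5% and 95.8% in S100a9-high cells, 88.2% and 94.4% in Tff1-high cells, 84.6% and 85.3% in Tff3-high cells and 81.5% and 96.3% in Ang4-high cells. Wfdc2-high cells (51.9% and 71.7%) and Bpifa1-high cells (40% and 72.0%) did not exceed all mTEC in both replicates. S100a8-high cells had a median of 10994 and 13719 UMIs, against 9500.5 and 11386 in all mTEC, which makes any gene easier to detect in them. The same order held in both replicates for Reg3g-, Ang4-, Tff1-, Tff3- and S100a9-high cells. In contrast, Wfdc2-high cells had 9104 and 11886 UMIs, Bpifa1-high cells 14964 and 11089, and Reg3b-high cells (4 and 36 cells) 9392 and 13381.

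Most S100a8-high cells carried epithelial transcripts, and neutrophil markers were also more often detected in them than in all mTEC. Epcam was detected in 94.3% and 96.5% of them. The myeloperoxidase gene Mpo was detected in 9.22% and 13.3%, against 3.40% and 7.93% of all mTEC, and Ly6g in 4.26% and 16.1%, against 2.65% and 12%. Ly6g measured 219 and 77.3 CPM in these cells against 40.4 and 45.7 CPM. The granule protease gene Elane (0.709% and 0.998%) and the G-CSF receptor gene Csf3r (0.709% and 0.499%) were rare, and in all mTEC they were rarer still. The neutrophil list summed to 426 and 310 CPM in these cells, above the 117 and 161 CPM of all mTEC, with 0 of its 11 genes at 0. The part of these transcripts in the S100a8 level was not tested beyond leaving out the cells with blood markers. Of the S100a8-high cells, 2 of the 141 and 17 of the 601 fell in the set with at least 3 neutrophil markers.

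**Figure D3:**
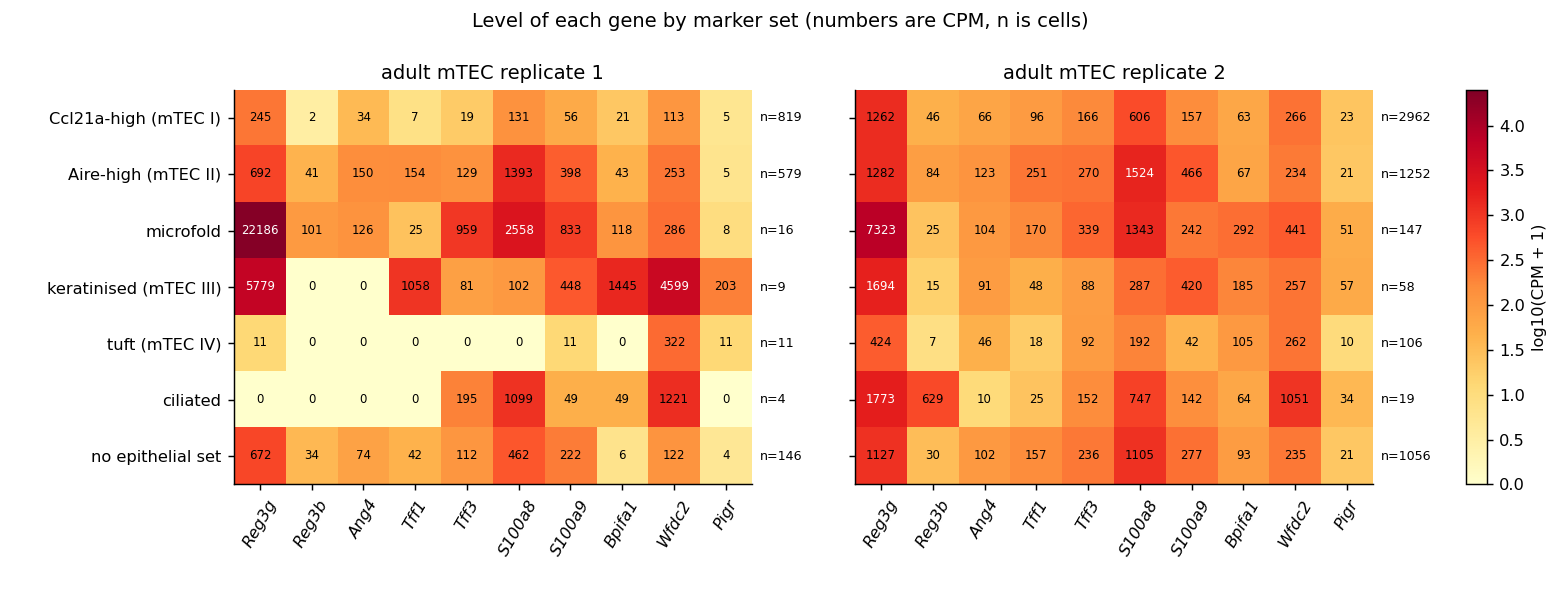
Level of each gene (colour, log10 of CPM + 1) in the marker sets of adult mTEC (rows), with 1 panel for each replicate. The microfold row is darkest for Reg3g, at 22186 and 7323 CPM, and the Aire-high row is darker than the Ccl21a-high row for S100a8, S100a9, Tff1 and Ang4.

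Pairs of the genes differed in how often both were high in the same cell. Of the S100a9-high mTEC, 54 of 66 in replicate 1 and 193 of 239 in replicate 2 were also S100a8-high. Of the Reg3b-high cells, 3 of 4 and 27 of 36 were Reg3g-high. These are neighbouring pairs of the genome. In the other direction, 38.3% and 32.1% of S100a8-high cells were S100a9-high, and 3.49% and 4.39% of Reg3g-high cells were Reg3b-high. The trefoil pair is also linked, but its overlap was smaller than that of the S100a9-high and Reg3b-high cells. Of the Tff1-high cells, 2 of 17 and 23 of 107 were Tff3-high, against 1.64% and 3.03% of all mTEC. Of the Bpifa1-high mTEC, 3 of 5 and 7 of 50 were Wfdc2-high, against 1.70% and 2.01% of all mTEC. Ang4 and Tff1 were high together in 1 and 2 cells, which is 3.70% and 2.50% of the Ang4-high cells, where 1.07% and 1.91% of all mTEC were Tff1-high. Genes on different chromosomes could coincide as well: 9 of 17 and 45 of 107 Tff1-high cells were S100a8-high, against 8.89% and 10.7% of all mTEC, and Reg3g and S100a8 were both high in 22 and 153 cells. Of the cells high for any gene, 160 and 828 were high for 1 gene, 69 and 330 for 2, and 31 and 164 for 3 or more, with a maximum of 5 and 6.

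**Figure D4:**
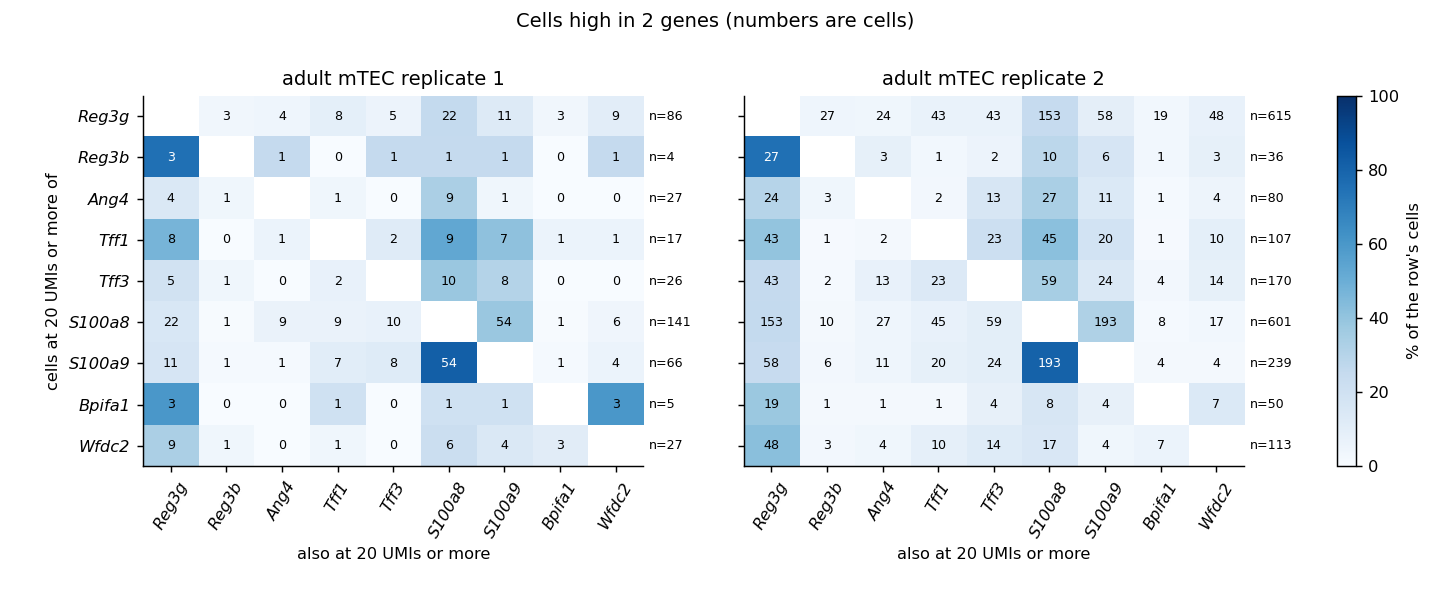
Percent of the cells at 20 UMIs or more of the row gene that were also at 20 UMIs or more of the column gene, in adult mTEC, with 1 panel for each replicate. Most S100a9-high cells were also S100a8-high, 54 of 66 and 193 of 239 cells. Ang4 and Tff1, high in fewer cells (27 and 80, 17 and 107), share 1 and 2 cells.

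Across mTEC, likeness was measured as Pearson's r of log-normalised values over the cells of each library (1586 and 5615 cells, sharing library and depth), as a description. S100a8 was most like S100a9 (r = 0.697 and 0.551, Spearman's rho 0.485 and 0.277), followed by Csn2, the milk protein beta-casein (r = 0.524 and 0.397, rho 0.453 and 0.336). S100a9 was in turn like Csn2 (r = 0.379 and 0.302, rho 0.327 and 0.240). Reg3b was most like Reg3a, another lectin of the cluster (r = 0.706 and 0.513, rho 0.495 and 0.217). Reg3g was most like AW112010 (r = 0.374 and 0.375, rho 0.305 and 0.317) and the peptidoglycan recognition gene Pglyrp1 (r = 0.364 and 0.378, rho 0.296 and 0.245), and Tff1 was most like Tff2 (r = 0.419 and 0.342, rho 0.367 and 0.181). No gene reached an r of 0.3 in both libraries with Ang4, Tff3, Bpifa1, Wfdc2 or Pigr.

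The airway genes gave the opposite picture. Bpifa1 measured 2923 and 1451 CPM in adult cTEC and 40.6 and 75.5 CPM in mTEC, 72.0-fold and 19.2-fold higher in cTEC. Wfdc2 measured 1628 and 1096 CPM in cTEC and 198 and 266 CPM in mTEC, 8.21-fold and 4.11-fold higher. Pigr measured 43.8 and 24.3 CPM in cTEC and 5.41 and 23.5 CPM in mTEC, 8.09-fold higher in data set 1 and 1.03-fold in data set 2. The Pigr values of the second data set did not differ by more than the spread between the replicates.

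Nearly all Bpifa1 RNA in cTEC came from a handful of cells. In replicate 1, 19 of 507 cells had 20 UMIs or more, and in replicate 2, 14 of 535 did. These cells held 95.2% and 99.4% of the Bpifa1 UMIs. They were chosen by their Bpifa1 count, and the limit fell in a gap: the lowest cell inside had 24 and 25 UMIs and the highest cell outside 15 and 2 UMIs, while the median inside was 311 and 328. The largest single counts were 868 UMIs, 23.6% of that cell's RNA, and 993 UMIs, 7.65%. Below the limit Bpifa1 measured 149 and 9.12 CPM, and in cells with 3 or more thymocyte markers (15 and 28 cells) it measured 157 and 6.5 CPM. In replicate 1, 43.8% of cTEC had at least 1 Bpifa1 UMI (median depth 3996 UMIs), against 46.7% of its thymocyte-marker cells (median depth 4566). In replicate 2 the shares were 8.97% and 7.14% (median depth 7062 and 11571). Cells below the limit thus had about the level of the thymocyte-marker cells. Those were sorted as EpCAM+ cells and may carry cTEC RNA too, so whether the low counts are background was not tested.

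Wfdc2 was high in the same cells. All 19 and all 14 Bpifa1-high cTEC had Wfdc2 UMIs, at 18465 and 22597 CPM against 703 and 584 CPM in the other cTEC, and they held 59.0% and 47.9% of all Wfdc2 UMIs of their libraries. At the limit of 20 UMIs for both genes, 15 of the 19 and 12 of the 14 cells were also Wfdc2-high, out of 29 and 26 Wfdc2-high cTEC. Cells below 20 UMIs of Wfdc2 measured 190 and 153 CPM, against 157 and 97.5 CPM in the thymocyte-marker cells. Wfdc2 was therefore high in further cTEC that were not Bpifa1-high.

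Pigr was enriched in the same cells, at 335 and 447 CPM against 27.8 and 14.2 CPM in the rest, with UMIs in 12 of 19 and 11 of 14 cells. Reg3g had no stable place: it measured 85.8 CPM above the Bpifa1 limit and 187 CPM below in replicate 1, and 2407 against 27.9 CPM in replicate 2. In replicate 2, 1 cell with 186 UMIs held most of the Reg3g UMIs above the limit. Reg3b, Ang4, Tff1, Tff3, S100a8 and S100a9 had 0 UMIs in all 19 and all 14 cells. Of the genes higher in mTEC, Reg3g was thus the one detected in these cells.

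**Figure D5:**
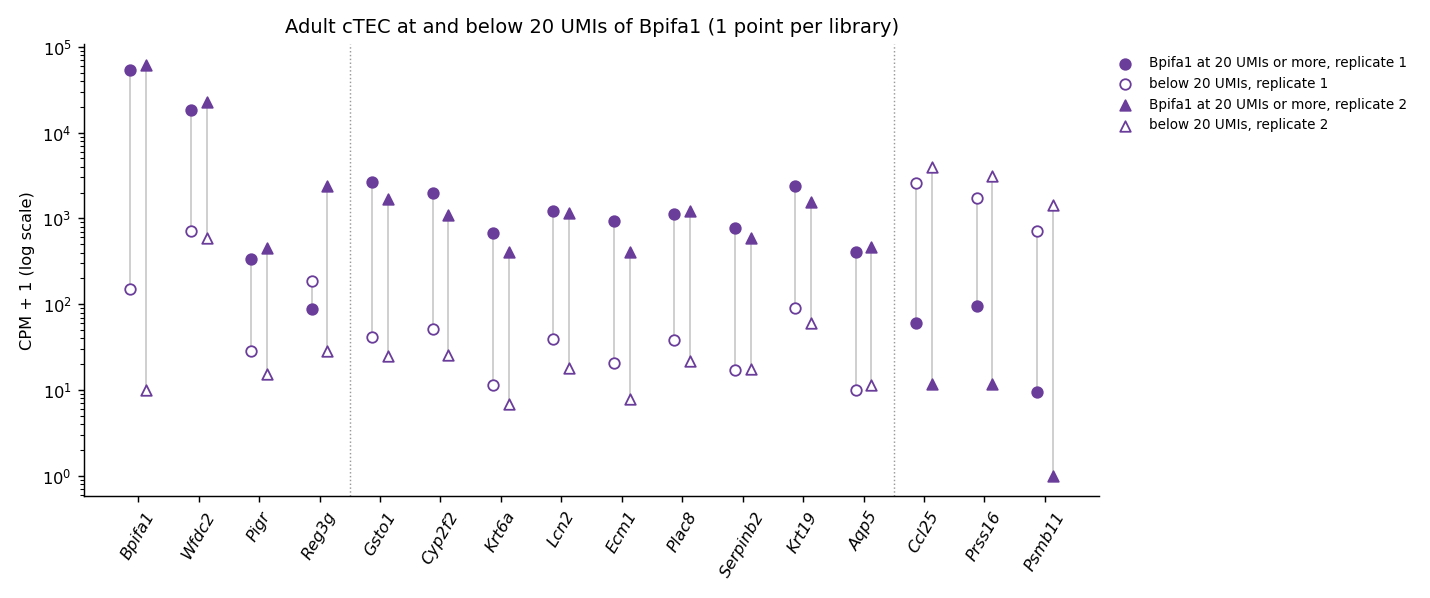
Level (CPM + 1, log axis) of genes in adult cTEC at 20 UMIs or more of Bpifa1 (filled points, 19 and 14 cells) and below (open points), with 1 point per library and replicate 1 and 2 drawn with different symbols. Bpifa1 itself set the split. Wfdc2 lay at 18465 and 22597 CPM against 703 and 584 CPM, and Psmb11 and other cTEC markers lay the other way.

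The Bpifa1-high cells of the cTEC sort carried few cortical transcripts. The cTEC list summed to 369 and 74.5 CPM in them, against 10691 and 17806 CPM in the other cells of the same libraries. The list of airway secretory markers summed to 4018 and 4473 CPM against 960 and 642 CPM in the others, with 10 of its 12 genes detected and with the club cell secretoglobin Scgb1a1 and Bpifb1 at 0. The club cell cytochrome gene Cyp2f2 measured 2000 and 1097 CPM, the surfactant collectin Sftpd 764 and 1363 CPM, and the airway mucin Muc5b 172 and 362 CPM, each above the other cTEC in both replicates. Other genes of the list were not: Cbr2 measured 678 and 618 CPM against 746 and 478 CPM, Scgb3a2 34.3 and 650 CPM against 63.2 and 23.8 CPM, and Scgb3a1 8.58 and 10.6 CPM against 3.30 and 77 CPM. 4 more lists were also higher in these cells in both replicates. The tuft list summed to 223 and 213 CPM against 107 and 16 CPM, with 1 of its 9 genes detected in each, and the microfold list to 532 and 351 CPM against 340 and 232 CPM. The keratinised list summed to 1571 and 628 CPM against 204 and 127 CPM, with 5 and 3 of its 9 genes detected, and the macrophage and dendritic list to 1382 and 256 CPM against 303 and 30.9 CPM, with 2 and 1 of 10 genes detected and mostly from the lysozyme gene Lyz2 (1356 and 256 CPM). The neutrophil list was at 137 CPM against 39.1 CPM in replicate 1, and in replicate 2 its level rested on 1 UMI. The 5-gene epithelial list was lower in these cells, at 8387 and 6730 CPM against 9905 and 11207 CPM, although Epcam was at 1305 and 1597 CPM against 651 and 485 CPM. The Ccl21a-high list was lower in replicate 1 (5357 against 8809 CPM) and higher in replicate 2 (5229 against 2867 CPM), with most of its RNA in these cells from Ly6a (3992 and 4888 CPM). By the rule on the smaller of the 2 ratios, the genes that most separated them were Gsto1, Cyp2f2, Krt6a, Wfdc2, Lcn2, Ecm1, Plac8, Serpinb2, Krt19 and Aqp5, with smaller ratios between 21.8 and 49.0. These describe the cells that the Bpifa1 count picked out and are not tested. Their median depth was 4640 and 6285.5 UMIs, close to the 3939.5 and 7135 UMIs of the other cells. The thymocyte list summed to 8.58 and 0 CPM in them.

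Bpifa1-high cells were rarer in the embryonic and newborn libraries than in adult cTEC. They numbered 9 of 1981 TEC (E13.5), 9 of 3571 cTEC (E15.5), 2 of 8350 (E17.5) and 0 of 3605 (NB), the last of which allows a share of cells with such a count of up to 0.0832%. In these embryonic cells Wfdc2 measured 839, 3424 and 3141 CPM by stage. In adult mTEC, the 5 and 50 Bpifa1-high cells had Reg3g at 34057 and 8963 CPM and Wfdc2 at 13927 and 1768 CPM. A single cell gave 840 of the 1024 Wfdc2 UMIs of the replicate 1 cells and a single cell gave 1191 of their 2504 Reg3g UMIs. In both replicates the Reg3g level of Bpifa1-high mTEC was above that of Bpifa1-high cTEC.

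Wfdc2 was the only gene of the 10 with a broad embryonic level. It measured 253 CPM in the E13.5 library, where 64.2% of cells had a UMI and 4 cells were high, and 89.2, 72.2 and 106 CPM in E15.5, E17.5 and NB cTEC. All of these lie below both adult cTEC libraries, but in adult cTEC the 29 and 26 high cells held 89.2% and 86.7% of the Wfdc2 UMIs. Among cells that were not high, the order differed: E13.5 TEC measured 248 CPM, above the 190 and 153 CPM of adult cTEC. Bpifa1 measured 47.1, 83.2, 16.9 and 0.45 CPM in the same libraries. Each stage has 1 library, so the order between stages has no replicate error, and the E13.5 library was sorted without Ly51 and UEA-1.

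To place the 10 genes among their relatives, 6 lists of mucosal genes that hold none of them were compared between adult mTEC and cTEC with edgeR's quasi-likelihood test on summed counts, with the data set as a term. Across 15650 genes tested, 3339 (21.3%) were higher in mTEC and 1771 (11.3%) higher in cTEC at an adjusted p of 0.05, and the median log2 fold change was 0.14. Of 119 listed genes, 117 were measured and 104 tested, of which 58 were higher in mTEC and 9 higher in cTEC, with a median log2 fold change of 2.68 (1.85 with the genes at 0 in cTEC set at their bound). These counts were 28 and 4 without adult cTEC replicate 2, 35 and 5 without adult mTEC replicate 2, 41 and 4 without adult cTEC replicate 1, 49 and 3 without adult mTEC replicate 1, and 39 and 9 with the DESeq2 test. The lists were chosen with these data known, so the shares are descriptions. In bulk sums like these, fewer cells that make a gene and less RNA per cell cannot be told apart.

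Of the other Reg genes, all 3 tested were higher in mTEC. Reg1 measured 0 and 0.248 CPM in cTEC and 10.1 and 29.7 CPM in mTEC (log2 fold change 7.17 ± 0.85, edgeR adjusted p = 1.01e-09). Reg4 measured 0.447 and 0 CPM in cTEC and differed by 7.05 ± 0.82 on the log2 scale (edgeR adjusted p = 6.00e-10). The cTEC levels of both genes lay below the floor of 3 counts, so the size of their change is uncertain. The log2 fold change of Reg1 was 6.33 without adult cTEC replicate 1 and 12.2 without adult cTEC replicate 2. That of Reg4 was 12.3 and 5.76 in the same fits. The Reg1 call was lost when either cTEC library was left out. Of the trefoil and mucus genes, 12 of 24 tested were higher in mTEC and 2 in cTEC. The DESeq2 test gave 6 and 1, and edgeR without adult cTEC replicate 2 gave 5 and 0. Tff2 differed by 6.90 ± 0.73, the membrane mucin Muc1 by 3.91 ± 0.44 and the mucus protein Fcgbp by 2.87 ± 0.43 on the log2 scale, all past the threshold. The cTEC level of Tff2 (0.894 and 0 CPM) lay below the floor of 3 counts. Its log2 fold change was 13.1 without adult cTEC replicate 1 and 5.61 without adult cTEC replicate 2. Reg3a and the goblet cell lectin Zg16 were at 0 in both cTEC libraries, with mTEC levels at least 10.5-fold and 17.3-fold higher for Reg3a and at least 17.7-fold and 31.4-fold higher for Zg16.

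Antimicrobial proteins gave 21 genes higher in mTEC and 4 higher in cTEC of 31 tested, and 8 and 1 without adult cTEC replicate 2. Serum amyloid genes were among those higher in mTEC, with Saa1 at 78.1 and 218 CPM in mTEC against 0.894 and 0.743 CPM in cTEC (log2 fold change 7.63 ± 0.60, edgeR adjusted p = 7.02e-15) and Saa3 at 127 and 389 CPM against 2.23 and 1.98 CPM (6.96 ± 0.56). Saa2 and the beta-defensin Defb3 were at 0 in both cTEC libraries, with mTEC levels at least 21.3-fold and 104-fold higher for Saa2 and at least 14.6-fold and 39.9-fold higher for Defb3. Of the WFDC and BPI-fold relatives of Wfdc2 and Bpifa1, 15 of 18 were higher in mTEC and 0 in cTEC, the opposite side from Wfdc2 and Bpifa1 themselves. Of these 18 genes, 9 were at 0 in both cTEC libraries. Setting them at their bounds lowered the median log2 fold change of the list from 7.72 to 2.16. With the DESeq2 test 9 were higher in mTEC, and 6 without adult cTEC replicate 2. Wfdc18 measured 3888 and 3080 CPM in mTEC against 418 and 132 CPM in cTEC (3.96 ± 0.48 on the log2 scale). Wfdc17 differed by 4.61 ± 0.46 and the protease inhibitor gene Slpi by 2.26 ± 0.44, the latter not called without adult cTEC replicate 2.

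Of the other S100 genes, 7 of 13 were higher in mTEC and 2 in cTEC, with smaller differences than S100a8 and S100a9. S100g, a calcium-binding protein of the gut, measured 263 and 548 CPM in mTEC against 19.2 and 8.17 CPM in cTEC (log2 fold change 4.99 ± 0.50, edgeR adjusted p = 7.98e-12). S100a14 differed by 3.49 ± 0.44, S100a3 by 3.07 ± 0.42 and S100a4 by 2.82 ± 0.48, a call that was lost without adult cTEC replicate 2. Genes of the cytokine receptors and signals that induce mucosal defence proteins in gut and skin were mostly not called: 3 of 20 were higher in mTEC and 1 in cTEC, with a median of 0.03, near that of all genes. Il1rn, the interleukin 1 receptor antagonist, was higher in mTEC (2.63 ± 0.45) as was Ccl20 (1.86 ± 0.40), but without the data set block no gene of this list was called higher in mTEC (edgeR adjusted p = 0.0612 for Il1rn and 0.122 for Ccl20). The Ccl20 call was also lost without adult cTEC replicate 1 or without adult mTEC replicate 2. Nfkbiz, a cofactor in the induction of antimicrobial genes, was lower in mTEC (log2 fold change -1.83 ± 0.39, edgeR adjusted p = 0.000162), at 98.3 and 63.3 CPM against 426 and 205 CPM in cTEC. This call was lost without adult cTEC replicate 1 or without adult mTEC replicate 2.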

How the data were processed

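Per the labels, the libraries were 10x Genomics Single Cell Chromium v2, sequenced on a NextSeq, and made with bcl2fastq 2.17, Cell Ranger 2.0.1 and STAR 2.5.1b against mm10. The headers of the second data set name Cell Ranger 3.0.1. The authors deposited raw UMI counts per gene and cell, not normalized. Data set 1 (E13.5, E15.5, NB, adult replicate 1) and data set 2 (E17.5, adult replicate 2) come from the study's methods, and adult replicates are numbered in accession order. Nothing says that they came from separate mice, so p-values measure only the spread between these samples. The 10 genes, the marker lists and the mucosal lists were chosen with earlier results of these data known.

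Cells with at most 5% mitochondrial UMIs and at most 5000 genes were kept. No doublet caller was run. CPM was taken over the 27514 genes of both gene lists. Shares were also taken at 2000 UMIs per cell. Intervals and floors (3 counts) cover counting error only. For adult cTEC against mTEC, counts were summed per library and tested with edgeR 4.0.16 (R 4.3.3, TMM, filterByExpr, data set as a term, Benjamini-Hochberg, threshold 0.05). All 10 genes passed the filter. The fit was tested on simulated counts at a log2 change of 2, where 184 of 200 changed genes were recovered with 4 false calls among 15046 genes. Alternatives were RLE scaling, no filter, DESeq2 1.42.0, no data set term, other cell filters and each library left out.

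List genes are named where they passed the threshold, had a mean of at least 10 CPM and were among the 4 with the largest change in their list. Other genes named for likeness needed an r of at least 0.3 in both mTEC libraries, at most 3 per gene, or, for the Bpifa1-high cTEC, were the 10 with the largest smaller ratio of CPM + 10. Tff2, Cyp2f2, Sftpd, Muc5b, Epcam and Ly6a were also named from marker lists. Promoters are RefSeq windows on GRCm38.p6 and gene positions are from GENCODE mouse release M21 on GRCm38. Motifs were searched on both strands. Pairs of windows were aligned globally (match 1, mismatch -1, gap -2).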

Additional observations from a re-analysis of the deposited data

How the results depend on the processing

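The log2 ratio of mTEC to cTEC of each of the 10 genes kept its sign under every alternative tried, in each data set alone and with a pseudocount of 10. The number of genes called between adult cTEC and mTEC was 5110, and 5042 with RLE scaling, 4793 with no filter, 5173 with all deposited cells and 5003 without cells carrying blood markers, but 2591 with the DESeq2 test. DESeq2 called 48 list genes, among them 7 trefoil and mucus genes (14 with edgeR), 18 antimicrobial genes (25) and 9 WFDC and BPI-fold relatives (15). The labels give no replicate numbers, so the pairing by data set comes from the study's methods. Without this block 4257 genes and 55 of the list genes were called (67 with it). Among the named list genes, the calls of Il1rn, Ccl20, Wfdc12, Muc5b, S100a1 and Sprr2a1 were lost without the block, and those of Saa2, Defb3, Zg16, Wfdc12 and Muc20 with the DESeq2 test. Leaving out 1 library, which needed a fit without the data set term and assumes that the lone library varies like the other group, gave 2051 (without adult mTEC replicate 2) to 2922 (without adult cTEC replicate 1) genes and 32 (without adult cTEC replicate 2) to 52 (without adult mTEC replicate 1) list genes. By list these fits called 5 to 10 trefoil and mucus genes, 9 to 21 antimicrobial genes, 6 to 11 WFDC and BPI-fold relatives, 5 to 8 S100 genes, 2 to 4 Reg genes and 1 to 6 cytokine receptor and signalling genes. The log2 fold change of Sprr2a1 turned, from -6.41 (without adult mTEC replicate 1) to 0.80 (without adult cTEC replicate 1). As Spearman's rho, 6 of 8 likeness values (S100a8 with S100a9 counted from each gene) were smaller by more than their spread between replicates. The number of Bpifa1-high adult cTEC was 33, and 35 at 10 UMIs, 31 at 40 UMIs and 34 at 20 UMIs per 5000. Fewer than 600 cells in each adult cTEC library limit what can be said of rare cells there.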

Other observations

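The 9 genes of the mucosal lists that were higher in cTEC, named here after their values were seen, were Ang, Rnase4, Defb1, Sprr2a1, Muc5b, Muc20, S100a1, S100a10 and Nfkbiz. With 1 library left out, 3 to 5 list genes were higher in cTEC, and of these 9 genes Rnase4 was the one called in each such fit. Among ribonucleases of the family of Ang4, Ang and Rnase4 were higher in cTEC, and Ang2 (0 and 0.495 CPM in cTEC against 1.86 and 3.77 CPM in mTEC, edgeR adjusted p = 0.0204) and Rnase1 (6.26 and 0.495 CPM against 20.6 and 39.9 CPM, edgeR adjusted p = 2.87e-06) were higher in mTEC, Ang2 and Rnase1 being named here after their values were seen. Ang measured 37.1 and 42.6 CPM in cTEC against 7.27 and 13.8 CPM in mTEC (log2 fold change -1.90 ± 0.41, edgeR adjusted p = 0.000239), a call that was lost in 3 of the 4 fits with a library left out. Rnase4 differed by -3.08 ± 0.40 on the log2 scale (edgeR adjusted p = 1.25e-08). Sprr2a1 was carried by 1 library, at 88.9 CPM in cTEC replicate 1 and 0.990 CPM in replicate 2, and its direction turned when replicate 1 was left out. Muc5b differed by -2.98 on the log2 scale (edgeR adjusted p = 0.000411), and its cTEC level lay mainly in the Bpifa1-high cells, at 172 and 362 CPM (in 3 and 4 of these cells) against 3.30 and 0.253 CPM in the other cTEC. Lcn2, which was among the genes that most separated the Bpifa1-high cTEC, was not called between the sorts (log2 fold change -0.93, edgeR adjusted p = 0.0985), but it was called higher in cTEC without the cells carrying blood markers (-1.16, edgeR adjusted p = 0.0415).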
